A study of Mus musculus with 6 samples.

Results

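The mitochondrial genome transcripts were the 37 rows of the count matrix whose gene symbol starts with mt-, and they were chosen by that name alone among 61880 rows. They held 13 mRNAs, 2 rRNAs and 22 tRNAs, which are all 37 genes that the annotation places on mouse chromosome M. The rows belonged to 31 of 53912 assembled loci, 5 of these loci held more than 1 mitochondrial row, and 0 rows of the 31 loci lacked an mt- symbol. The RNA came from epithelial cells isolated from inguinal mammary glands, each sample being a pool, with 3 pools from transgenic *fat-1* mice and 3 from wildtype (WT) mice. All mice were FVB/NJ females aged 6 to 8 weeks (puberty) that were kept for life on the same parental diet with 10% fat (w/w) from safflower oil, an oil rich in *n*-6 polyunsaturated fatty acids (PUFA). Mammals cannot turn *n*-6 into *n*-3 PUFA, and *fat-1* mice can do so in all tissues because they carry a desaturase gene of the worm *Caenorhabditis elegans*. On this diet the WT mice, which lack the transgene, were therefore exposed mainly to *n*-6 PUFA. The transgene's own transcript was not analysed here. Counts per sample summed to between 204539059 and 232148824. The 12 luminal and basal epithelial markers all had counts in every sample, and so did the 6 immune, 5 fibroblast and 4 endothelial markers, while *Adipoq*, an adipocyte hormone, was at 0.347 ± 0.133 CPM (counts scaled to library size, SD, n = 3) in *fat-1* and 0.338 ± 0.108 CPM in WT samples. The isolates thus held RNA of several cell types, and in such bulk RNA fewer cells of a type and less RNA per cell cannot be told apart.

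The mitochondrial genome is a small circle that is transcribed along both strands into long precursors. These precursors are cut mostly at the tRNAs that lie between the other genes, and the mRNAs then gain short poly(A) tails. The mRNAs encode subunits of respiratory chain complexes I, III and IV and of ATP synthase (complex V), while the rRNAs and tRNAs serve the translation of these mRNAs inside the organelle. All proteins that transcribe, cut, modify and translate this RNA are made from nuclear genes. In the mammary epithelium, as elsewhere, these transcripts are abundant because each cell holds many copies of the genome.

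Some neighbouring genes of this genome share bases, and some of their rows were joined into a single locus in the matrix. The last bases of *mt-Atp8* and the first bases of *mt-Atp6*, both subunits of ATP synthase, are shown here because these rows share a locus and 43 bases (chrM:7927-7969) belong to both genes, and these are in capitals. The last bases of *mt-Nd4l* and the first of *mt-Nd4*, both subunits of complex I, share 7 bases (chrM:10167-10173). All lines are the plus strand of GRCm38 as annotated by GENCODE, 5′ to 3′, at chrM:7897-7969, chrM:7927-7999, chrM:10137-10173 and chrM:10167-10203. This build is the sequence of another strain than FVB/NJ.
mt-Atp8: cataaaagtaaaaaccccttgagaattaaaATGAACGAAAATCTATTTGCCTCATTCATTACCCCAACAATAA
mt-Atp6: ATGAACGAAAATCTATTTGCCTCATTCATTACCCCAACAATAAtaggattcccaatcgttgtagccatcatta
mt-Nd4l: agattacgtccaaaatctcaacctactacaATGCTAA
mt-Nd4: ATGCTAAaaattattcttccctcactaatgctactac

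The tRNAs are shown because the 3 of 32 tested rows whose genotypes did not overlap in CPM were all tRNAs (9.38%, beside 5.26% of all tested rows). These 3, *mt-Tm*, *mt-Tn* and *mt-Tc*, are among those printed, and the other printed tRNAs overlapped. The lines give the 5 tRNAs with the highest mean CPM and *mt-Tm*, which was added after its values were seen, as the RNA's own strand in DNA letters, with the anticodon in capitals. They lie at chrM:14071-14139 on the minus strand (*mt-Te*, glutamic acid), chrM:2676-2750 on the plus strand (*mt-Tl1*, leucine), chrM:5089-5159 on the minus strand (*mt-Tn*, asparagine), chrM:5018-5086 on the minus strand (*mt-Ta*, alanine), chrM:5192-5257 on the minus strand (*mt-Tc*, cysteine) and chrM:3845-3913 on the plus strand (*mt-Tm*, methionine).
mt-Te: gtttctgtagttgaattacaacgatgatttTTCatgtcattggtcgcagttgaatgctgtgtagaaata
mt-Tl1: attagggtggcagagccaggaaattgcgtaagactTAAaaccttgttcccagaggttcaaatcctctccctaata
mt-Tn: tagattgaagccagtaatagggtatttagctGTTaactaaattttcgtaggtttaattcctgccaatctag
mt-Ta: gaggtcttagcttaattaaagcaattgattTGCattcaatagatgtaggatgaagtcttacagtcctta
mt-Tc: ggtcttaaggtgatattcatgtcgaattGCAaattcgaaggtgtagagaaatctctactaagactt
mt-Tm: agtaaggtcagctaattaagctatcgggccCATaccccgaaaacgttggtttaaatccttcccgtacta

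Mitochondrial RNA took up a similar share of the library in *fat-1* and WT samples. The mRNAs made up 2.68%, 2.56% and 2.19% of all counts across *fat-1* pools and 2.76%, 2.36% and 2.24% across WT pools. The means were 2.48% ± 0.252 and 2.45% ± 0.274 (SD, n = 3), the genotypes overlapped, and the difference was smaller than the spread between samples (exact permutation test, two-sided, *p* = 1.00). With 3 samples against 3, the smallest *p*-value that this test can give is 0.1. The rRNAs made up 0.428%, 0.476% and 0.379% across *fat-1* pools and 0.411%, 0.409% and 0.422% across WT pools. The highest and the lowest rRNA share were both *fat-1*, so the WT samples lay within the *fat-1* range (exact permutation test, *p* = 0.700). The tRNAs made up 0.00933%, 0.00936% and 0.00764% across *fat-1* pools and 0.00858%, 0.00782% and 0.00810% across WT pools, and the groups overlapped (exact permutation test, *p* = 0.400). The widest 95% Wilson interval of these shares was ± 0.00221 percentage points, and since reads are not independent molecules these intervals cover counting error only. All classes together came to 2.91% ± 0.290 in *fat-1* and 2.87% ± 0.270 in WT samples.

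**Figure D1:**
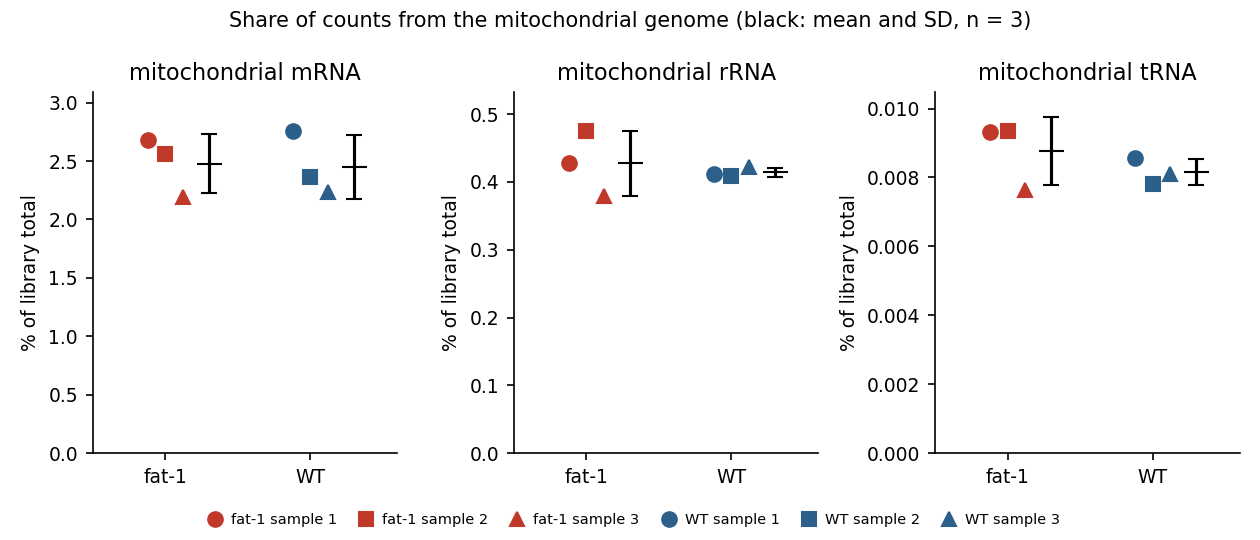
Each panel plots the share of all counts of a sample (% of library total, axis from 0) that came from mitochondrial mRNA, rRNA or tRNA, with 1 point per sample, *fat-1* in red and WT in blue, and the mean and SD of the 3 samples in black. The genotypes overlap in every panel, and the rRNA shares of the WT samples (0.409% to 0.422%) lie inside those of the *fat-1* samples (0.379% to 0.476%).

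The make-up of the mitochondrial RNA overlapped between genotypes as well. Of all mitochondrial counts, mRNA was 85.0% ± 0.956 in *fat-1* and 85.2% ± 1.48 in WT samples, rRNA was 14.7% ± 0.952 and 14.5% ± 1.46, and tRNA was 0.301% ± 0.00597 and 0.285% ± 0.0173. The ratio of rRNA to mRNA counts was 0.160, 0.186 and 0.173 across *fat-1* pools and 0.149, 0.173 and 0.189 across WT pools (exact permutation test, *p* = 1.00). The study describes its RNA as total RNA with non-coding RNA included, and the labels name total RNA but also an mRNA library, so how far RNA without a long poly(A) tail was kept is uncertain, and the rRNA and tRNA shares are shares of these libraries only.

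The sums of each class were compared in CPM of the normalised (TMM) library, by the quasi-likelihood test of edgeR. The mRNA sum was 26641, 25376 and 22362 CPM across *fat-1* pools and 27067, 24236 and 22196 CPM across WT pools. Each genotype had high and low samples, with a log2 fold change (*fat-1* over WT) of 0.02 (95% interval −0.22 to 0.26). The rRNA sum was 4255, 4720 and 3865 CPM against 4036, 4203 and 4193 CPM, a log2 fold change of 0.05 (−0.16 to 0.26). The tRNA sum was 92.8, 92.9 and 77.9 CPM against 84.1, 80.4 and 80.4 CPM, a log2 fold change of 0.11 (−0.19 to 0.40), and the adjusted *p*-value of each of the 3 sums was 1.00. Leaving out 1 sample turned the sign of the mRNA difference without *fat-1* sample 1 (−0.03), *fat-1* sample 2 (−0.00) or WT sample 3 (−0.05), and that of the rRNA difference without *fat-1* sample 2 (−0.03). No direction can be read from either class.

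Of the 37 rows, 32 had enough counts to be tested, which were the 13 mRNAs, the 2 rRNAs and 17 tRNAs. With edgeR's quasi-likelihood test 0 of 32 passed an adjusted *p*-value of 0.05, beside 0.00% of the 30683 rows tested in all, and 0 of 32 passed at an unadjusted *p*-value of 0.05, beside 2.21% of all rows. DESeq2 and edgeR's exact test also gave 0 mitochondrial rows past the adjusted threshold, beside 93 and 32 of all rows. At the unadjusted threshold the exact test gave 0 and DESeq2 gave 1 (3.02% of all rows). The log2 fold change was above 0 for 25 of the 32 rows (10 mRNAs, 2 rRNAs and 13 tRNAs), beside 51.2% of all rows, and its median was 0.02 for mRNAs, 0.04 for rRNAs and 0.11 for tRNAs, beside 0.00 over all rows. These rows come from shared precursors and the same 6 samples, so they are not independent. Added up by locus, 0 of 29 tested loci passed, beside 0.00% of 24061 loci, and 0 passed at the unadjusted threshold, beside 1.14%.

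**Figure D2:**
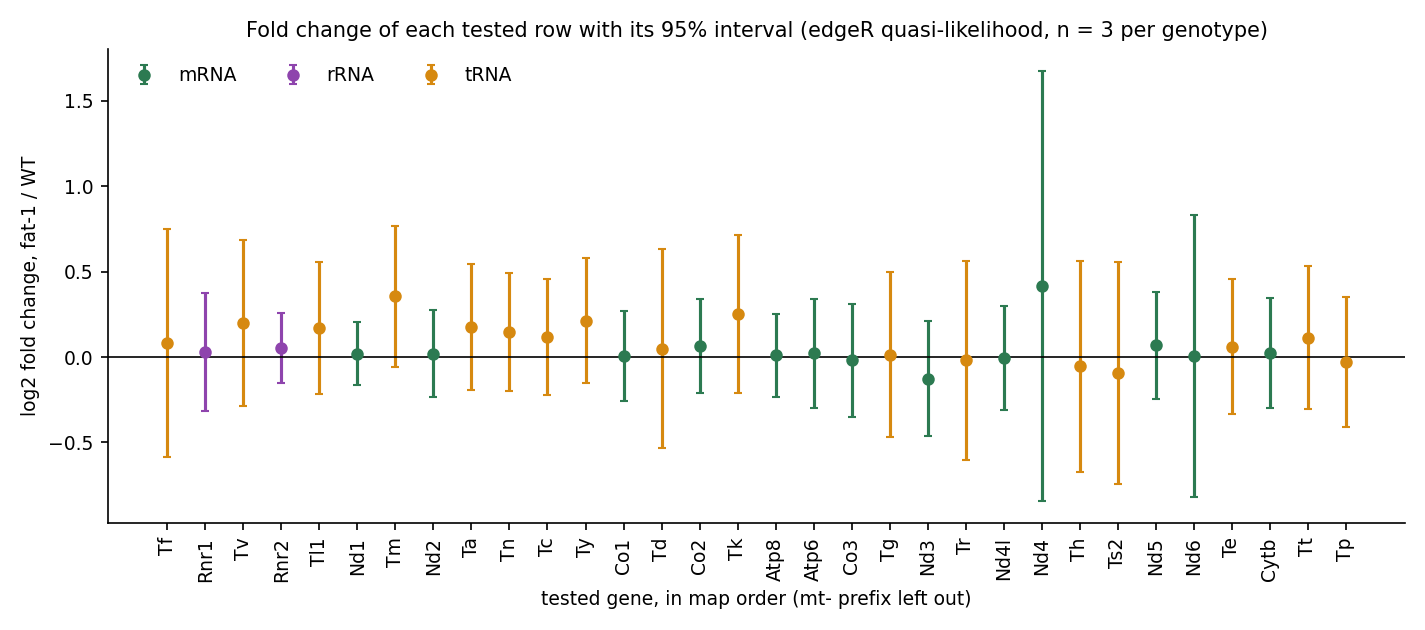
Points are the log2 fold changes (*fat-1* over WT) of the 32 tested mitochondrial rows in the order of the genome map, with 95% intervals from edgeR's quasi-likelihood test (3 samples per genotype), in green for mRNA, purple for rRNA and orange for tRNA. Every interval crosses 0, and the interval of *mt-Nd4* (−0.84 to 1.68) is the widest.

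Levels between genes were compared only per kilobase (kb) of annotated length, with the rows of a locus added up. *mt-Co1*, the catalytic subunit of cytochrome c oxidase (complex IV), was highest at 5765 ± 524 CPM per kb (SD over 6 samples), and its lowest sample (5218) lay above the highest sample of every other locus. After it came the locus of *mt-Atp8*, *mt-Atp6* and *mt-Co3* at 2426 CPM per kb, *mt-Co2* at 2303, *mt-Rnr2* at 2115, *mt-Nd1* at 2072 and *mt-Cytb* at 2041. Neighbours among these loci overlapped in their range over the 6 samples and are not ordered. *mt-Nd2* at 1439, the locus of *mt-Nd4l* and *mt-Nd4* at 1163, *mt-Nd5* at 1144 and *mt-Rnr1* at 904 CPM per kb followed, below the range of *mt-Cytb* and again with overlapping neighbours. *mt-Nd3* had 348 CPM per kb, which overlapped the tRNA *mt-Te* at 390. *mt-Nd6*, the only mRNA of the minus strand, had 14.9 CPM per kb.

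**Figure D3:**
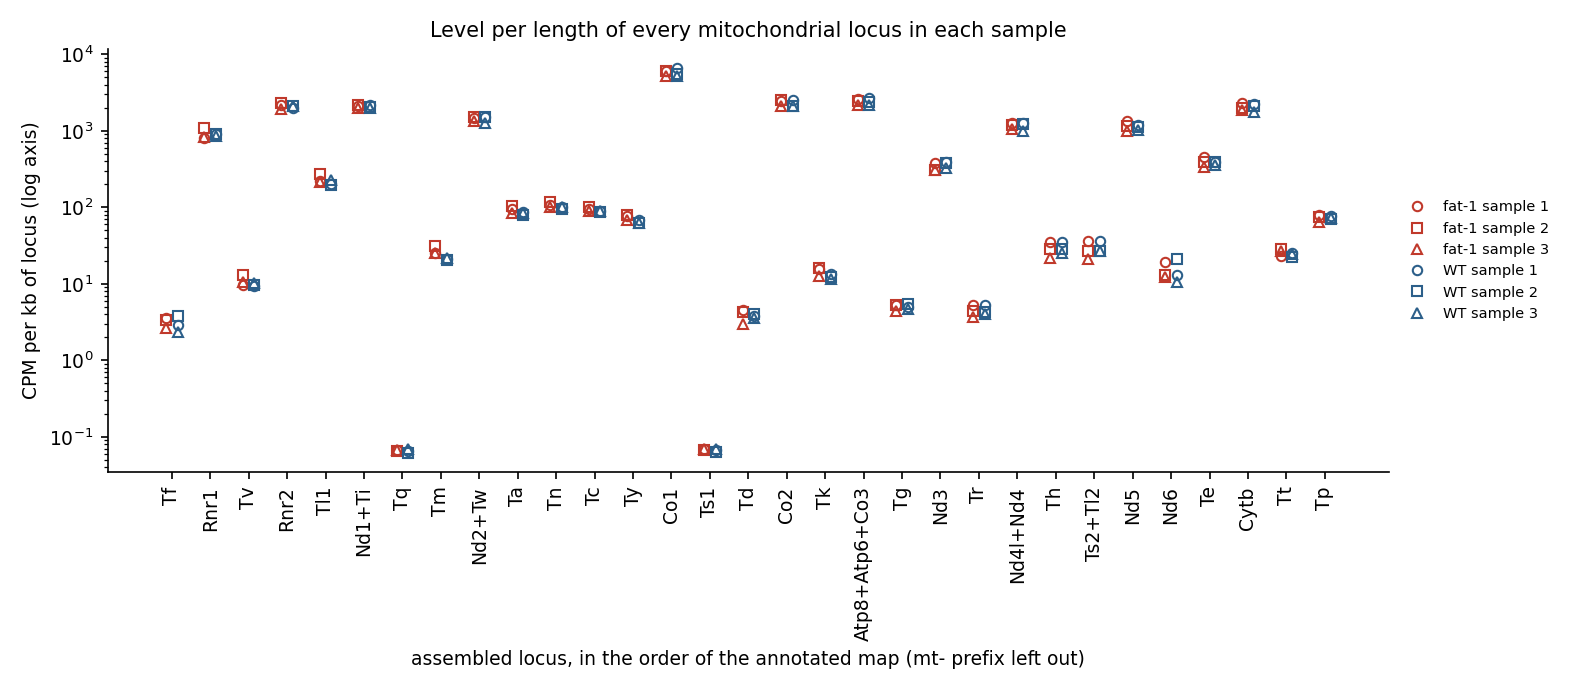
The log axis gives CPM per kb of every mitochondrial locus (31 loci, in map order, joined genes written with +), with 1 open symbol per sample, *fat-1* in red and WT in blue. The loci span several orders of magnitude with *mt-Co1* at the top, while the 6 samples of most loci lie on top of each other, and *mt-Tq* and *mt-Ts1* at the bottom are listed at 1 count in every sample.

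Complex IV has 3 subunits made from mitochondrial mRNA, and these made up 46.7% ± 0.491 of mitochondrial mRNA counts in *fat-1* and 46.9% ± 1.39 in WT samples. *mt-Co1* (chrM:5328-6872) had 9501, 9236 and 8046 CPM across *fat-1* pools and 10080, 8501 and 8125 CPM across WT pools, and the genotypes overlapped (log2 fold change 0.00, SE 0.107). It alone made up 36.0% ± 0.372 and 36.3% ± 1.11 of mRNA counts. *mt-Co2* (chrM:7013-7696), which takes up the electrons from cytochrome c, had 1664, 1710 and 1462 CPM across *fat-1* pools and 1740, 1454 and 1429 CPM across WT pools (log2 fold change 0.07, SE 0.111). *mt-Co3* (chrM:8607-9390), the third core subunit, had 1152, 1032 and 956 CPM against 1218, 1053 and 913 CPM (log2 fold change −0.02, SE 0.134). For all 3 genes the WT samples held both the highest and the lowest value, apart from *mt-Co1*, whose lowest value was *fat-1* sample 3. The *mt-Co3* row, and with it the share of complex IV, depends on how the counts of its locus with *mt-Atp8* and *mt-Atp6* were divided.

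Complex I, which takes electrons from NADH, has 7 subunits made from mitochondrial mRNA, and these held 32.0% ± 0.0546 of mRNA counts in *fat-1* and 31.9% ± 1.23 in WT samples. *mt-Nd1* (chrM:2751-3707) had 2144, 2261 and 2008 CPM across *fat-1* pools and 2198, 2114 and 2018 CPM across WT pools. It had the smallest coefficient of variation (CV) over the 6 samples among the tested rows, 4.69%. *mt-Nd2* (chrM:3914-4951) had 1640, 1674 and 1485 CPM against 1650, 1696 and 1386 CPM. *mt-Nd5* (chrM:11742-13565) had 2485, 2097 and 1837 CPM against 2180, 2041 and 1895 CPM. In these 3 core subunits of the membrane arm the genotypes overlapped, with log2 fold changes of 0.02, 0.02 and 0.07.

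*mt-Nd3* (chrM:9459-9806), a small subunit of complex I, had 132, 109 and 107 CPM across *fat-1* pools and 135, 131 and 113 CPM across WT pools. The genotypes overlapped, with a log2 fold change of −0.13 (−0.47 to 0.21). As a share of mitochondrial mRNA counts it made up 0.495%, 0.429% and 0.479% across *fat-1* pools and 0.498%, 0.542% and 0.511% across WT pools. On this scale it was 1 of 13 mRNAs whose genotypes did not overlap, with *fat-1* sample 1 and WT sample 1 nearly meeting (exact permutation test, *p* = 0.1, the smallest it can give), and nothing is read from this.

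The counts of *mt-Nd4l* and *mt-Nd4* were divided in a way that did not follow their lengths. *mt-Nd4* spans 1378 of the 1668 bases of the locus (82.6%), yet its row held 1.65%, 4.22% and 1.30% of all locus counts across *fat-1* pools and 1.48%, 1.34% and 2.80% across WT pools. The rest stood in the row of *mt-Nd4l*, which spans 297 bases, and which had 2087, 1889 and 1714 CPM across *fat-1* pools and 2085, 1996 and 1633 CPM across WT pools. On the row values *mt-Nd4l* would have 6400 CPM per kb and *mt-Nd4* 29.8. The row of *mt-Nd4* had 34.9, 83.3 and 22.5 CPM across *fat-1* pools and 31.2, 27.2 and 47.1 CPM across WT pools, with *fat-1* sample 2 the highest and WT sample 3 next. Its log2 fold change of 0.42 (−0.84 to 1.68) became −0.29 without *fat-1* sample 2. These 2 mRNAs are known to exist as 1 molecule that holds both reading frames, so only their sum was compared between loci.

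ATP synthase has 2 subunits made from mitochondrial mRNA, and these held 11.7% ± 0.157 of mRNA counts in *fat-1* and 11.7% ± 0.134 in WT samples. *mt-Atp8* (chrM:7766-7969) had 1882, 1815 and 1604 CPM across *fat-1* pools and 1910, 1733 and 1620 CPM across WT pools. *mt-Atp6* (chrM:7927-8607) had 1240, 1197 and 980 CPM against 1261, 1086 and 1020 CPM. Both overlapped between the genotypes, with log2 fold changes of 0.01 and 0.02. *mt-Atp8* spans 12.6% of the length of its locus with *mt-Atp6* and *mt-Co3*, but held between 43.5% and 45.6% of its counts. *mt-Atp6* held 27.7% to 29.6%, and *mt-Co3*, which spans 48.2% of the length, held 25.5% to 27.8%. How the locus counts were divided thus enters the row values of these 3 genes and the shares of complexes IV and V. Over the 6 samples the locus share of *mt-Atp8* had a CV of 1.75% and that of *mt-Nd4l* one of 1.19%. Only the small share of *mt-Nd4* varied widely for its size (CV 54.7%).

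**Figure D4:**
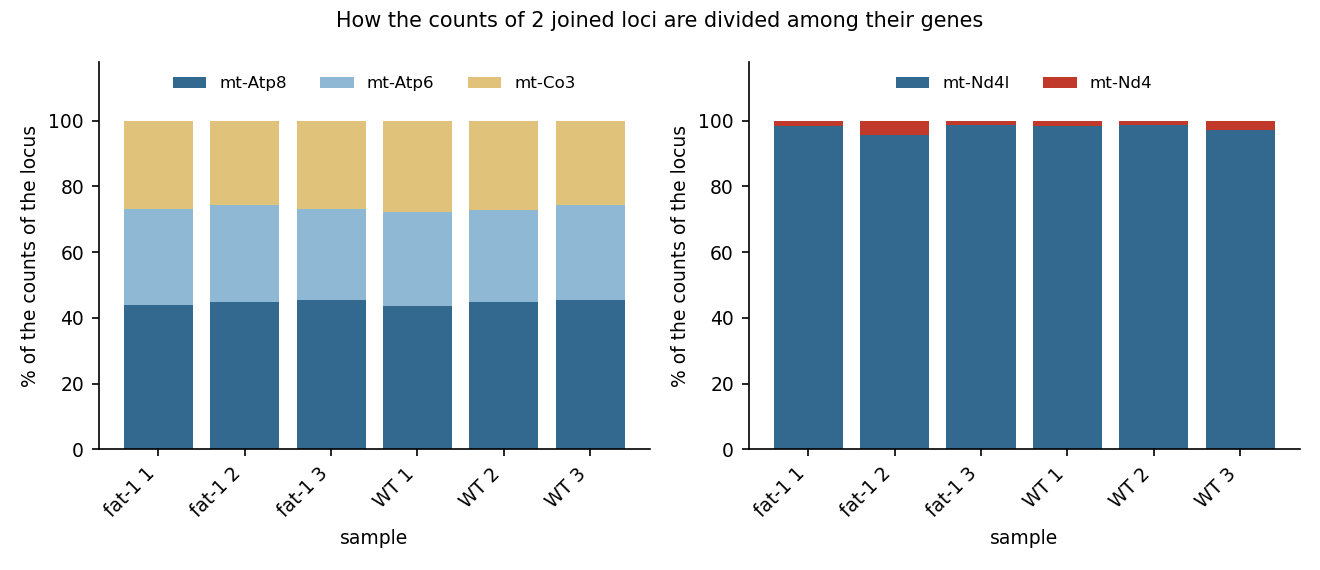
Stacked bars give, for each sample, the share of the counts of a joined locus (%, axis from 0) that the matrix lists under each of its genes, for *mt-Atp8*, *mt-Atp6* and *mt-Co3* on the left and for *mt-Nd4l* and *mt-Nd4* on the right. *mt-Atp8* holds 43.5% to 45.6% in every sample, and *mt-Nd4* (red) holds 1.30% to 4.22%, most in *fat-1* sample 2.

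*mt-Cytb* (chrM:14145-15288), cytochrome b of complex III, had 2668, 2261 and 2133 CPM across *fat-1* pools and 2571, 2393 and 1995 CPM across WT pools, and made up 9.49% ± 0.552 and 9.45% ± 0.446 of mRNA counts. The groups overlapped (log2 fold change 0.02, SE 0.131). *mt-Nd6* (chrM:13552-14070, minus strand), a membrane subunit of complex I, had 10.2, 6.73 and 6.37 CPM across *fat-1* pools and 6.72, 11 and 5.41 CPM across WT pools. One sample of each genotype stood above the others, and the CV over the 6 samples was 29.5% (log2 fold change 0.01, −0.82 to 0.83). Its annotated end shares 14 bases with *mt-Nd5* on the other strand, and the sources used here do not say whether the counting used strand, so reads within the shared bases may stand in either row. *mt-Nd6* had 0.00285 to 0.00541 counts per count of *mt-Nd5*.

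Both rRNAs had their highest value in *fat-1* sample 2. *mt-Rnr1* (chrM:70-1024), the rRNA of the small mitochondrial ribosome subunit, had 773, 1057 and 786 CPM across *fat-1* pools and 879, 867 and 819 CPM across WT pools, so that the WT samples lay within the *fat-1* range (log2 fold change 0.03, −0.32 to 0.38, and −0.13 without *fat-1* sample 2). *mt-Rnr2* (chrM:1094-2675), the rRNA of the large subunit, had 3482, 3661 and 3078 CPM against 3156, 3336 and 3375 CPM (log2 fold change 0.05, −0.15 to 0.26). The ratio of *mt-Rnr1* to *mt-Rnr2* counts was 0.222, 0.289 and 0.255 across *fat-1* pools and 0.279, 0.260 and 0.243 across WT pools (exact permutation test, *p* = 0.900).

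Some tRNA rows held hardly any counts. Of 22 annotated tRNAs, 6 share 1 to 3 bases with a neighbouring gene, and 4 of these 6 (*mt-Ti*, *mt-Tq*, *mt-Tw* and *mt-Ts1*) were listed at a count of 1 in every sample, as were 347 of the 61880 rows of the matrix. *mt-Tl2*, which also shares a base, had a count of at most 8. *mt-Ts2*, the remaining tRNA of the 6, shares that base with *mt-Tl2* and had counts of 562 to 1012. Of the 16 tRNAs without a shared base, 0 were listed at 1 throughout, and their counts ran from 33 to 6694. The 5 tRNAs with so few counts were not tested, and a count of 1 in 6 libraries of unequal depth is given as listed and not as a level.

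The annotated tRNAs, at 59 to 75 bases, are shorter than the reads that the study describes. Counts over them may come from longer RNA such as the precursors, which was not tested, so they are not read as levels of cut tRNA. *mt-Te*, printed above, had the highest value per length among the tRNA rows at 391 CPM per kb. It was followed by *mt-Tl1* at 223, *mt-Tn* at 104, *mt-Tc* at 92.5 and *mt-Ta* at 89.2. *mt-Te* had 31.9, 27.4 and 23.3 CPM across *fat-1* pools and 27.1, 27.4 and 24.7 CPM across WT pools, with both the highest and the lowest in *fat-1* samples. *mt-Tl1* had 16.5, 20.3 and 16.3 CPM against 15.3, 14.7 and 17.1 CPM, and *mt-Ta* had 6.56, 7.15 and 5.88 CPM against 5.98, 5.54 and 5.82 CPM. In both genes *fat-1* sample 2 was the highest and the groups overlapped (log2 fold changes 0.17 and 0.18). Per length, the 6 tested tRNAs annotated on the minus strand had a median of 90.8 CPM per kb and the 11 on the plus strand a median of 13.7. The ratio of minus to plus strand tRNA counts was 1.96 ± 0.148 in *fat-1* and 1.996 ± 0.121 in WT samples. Since strand use in the counting is not given, these values need not separate the RNA of the 2 strands.

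In 3 of the 32 tested rows the samples of the genotypes did not overlap in CPM (9.38%), beside 5.26% of all tested rows, and all 3 were tRNAs with higher values in the *fat-1* samples. *mt-Tm*, the methionine tRNA that both starts and extends mitochondrial proteins, had 1.74, 2.13 and 1.76 CPM across *fat-1* pools and 1.46, 1.43 and 1.52 CPM across WT pools. All 3 *fat-1* samples lay above all WT samples (log2 fold change 0.36, −0.06 to 0.77), with an unadjusted *p*-value of 0.0796 and an adjusted *p*-value of 1.00 by edgeR's quasi-likelihood test. DESeq2 gave an unadjusted *p*-value of 0.0311 and an adjusted *p*-value of 1.00. Per 1000 mitochondrial mRNA counts, *mt-Tm* had 0.0654, 0.0840 and 0.0788 counts across *fat-1* pools and 0.0538, 0.0591 and 0.0682 counts across WT pools, and on this scale the groups overlapped (exact permutation test, *p* = 0.200).

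*mt-Tn* had 7.72, 8.36 and 7.24 CPM across *fat-1* pools and 7.07, 6.84 and 7.15 CPM across WT pools, with a small gap between the lowest *fat-1* and the highest WT sample (log2 fold change 0.15, SE 0.140). *mt-Tc* had 6.38, 6.71 and 5.98 CPM against 5.90, 5.79 and 5.86 CPM, also just apart (log2 fold change 0.12, SE 0.138). When CPM were taken from library totals without TMM, or from totals without mitochondrial rows, only *mt-Tm* did not overlap (1 of 32, 3.12%, beside 5.32% and 5.31% of all rows). Added up by locus, *mt-Ty*, the tyrosine tRNA, joined the 3 (4 of 29, 13.8%, beside 4.15% of all loci). The tRNA sum per 1000 mRNA counts was 3.48, 3.66 and 3.48 across *fat-1* pools and 3.11, 3.32 and 3.62 across WT pools, which overlapped (exact permutation test, *p* = 0.3).

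Which sample was highest differed between the classes. Among the 13 mRNAs, WT sample 1 was the highest in 6, *fat-1* sample 1 in 3 and *fat-1* sample 2 and WT sample 2 in 2 each, while *fat-1* sample 3 was the lowest in 7 and WT sample 3 in 6. Among the 17 tested tRNAs, *fat-1* sample 2 was the highest in 9, *fat-1* sample 1 in 4 and WT samples 1 and 2 in 2 each. The lowest was *fat-1* sample 3 in 7, WT sample 2 in 6, WT sample 3 in 3 and WT sample 1 in 1. The spread over samples was near that of all loci with at least 100 CPM, a set not matched to the mitochondrial loci in level. The 11 mitochondrial loci with at least 100 CPM had a median CV of 9.10%, beside 8.4% over all 2371 loci of at least 100 CPM. The mRNA sum of the highest sample was 1.22 times that of the lowest. Among single markers the ratio was 4.28 for *Krt8*, a luminal keratin, and 5.57 for *Krt5*, a basal keratin. It was 2.60 for *Ptprc*, the pan-leukocyte CD45, and 1.96 for *Cd79a*, another immune marker. For *Col1a1*, a fibroblast collagen, it was 7.02, and for *Dcn*, another fibroblast marker, 2.32. These are single genes and the mRNA sum covers 13, so the ratios are not of like measures.

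Mitochondrial mRNA was set against marker scores, the mean log2(CPM + 1) of fixed cell type markers. The score of the 12 luminal and basal markers was 7.12, 5.22 and 6.17 across *fat-1* pools and 7.04, 6.20 and 5.25 across WT pools, and that of the 6 immune markers was 6.52, 7.56 and 7.12 against 6.51, 6.78 and 7.60. The score of the 5 fibroblast markers was 7.62, 8.81 and 9.51 across *fat-1* pools and 8.76, 9.45 and 9.11 across WT pools. The samples with the highest epithelial scores, *fat-1* sample 1 and WT sample 1, also had the highest mRNA sums.

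Of 4 relations computed over the 6 samples, none passed an exact permutation test over pairings. Pearson's *r* was 0.635 with luminal and basal markers (*p* = 0.201, adjusted 0.201, exact permutation) and Spearman's rho was 0.600 (*p* = 0.242, adjusted 0.242). With immune markers *r* was −0.658 (exact permutation *p* = 0.179, adjusted 0.201) and rho −0.829 (*p* = 0.0583, adjusted 0.206). With fibroblast markers *r* was −0.702 (exact permutation *p* = 0.0944, adjusted 0.201) and rho −0.771 (*p* = 0.103, adjusted 0.206), and with endothelial markers *r* was −0.670 (exact permutation *p* = 0.171, adjusted 0.201) and rho −0.657 (*p* = 0.175, adjusted 0.233). Without the 2 samples farthest from the median score, *r* was 0.929, −0.992, −0.592 and 0.117 in the same order. With each sample left out in turn, *r* ran from 0.465 to 0.908 for epithelial and from −0.918 to −0.480 for immune markers. In both cases *r* was farthest from 0 without *fat-1* sample 2, so including that sample made *r* weaker. The part of the cell makeup in the mitochondrial levels was not tested beyond this.

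**Figure D5:**
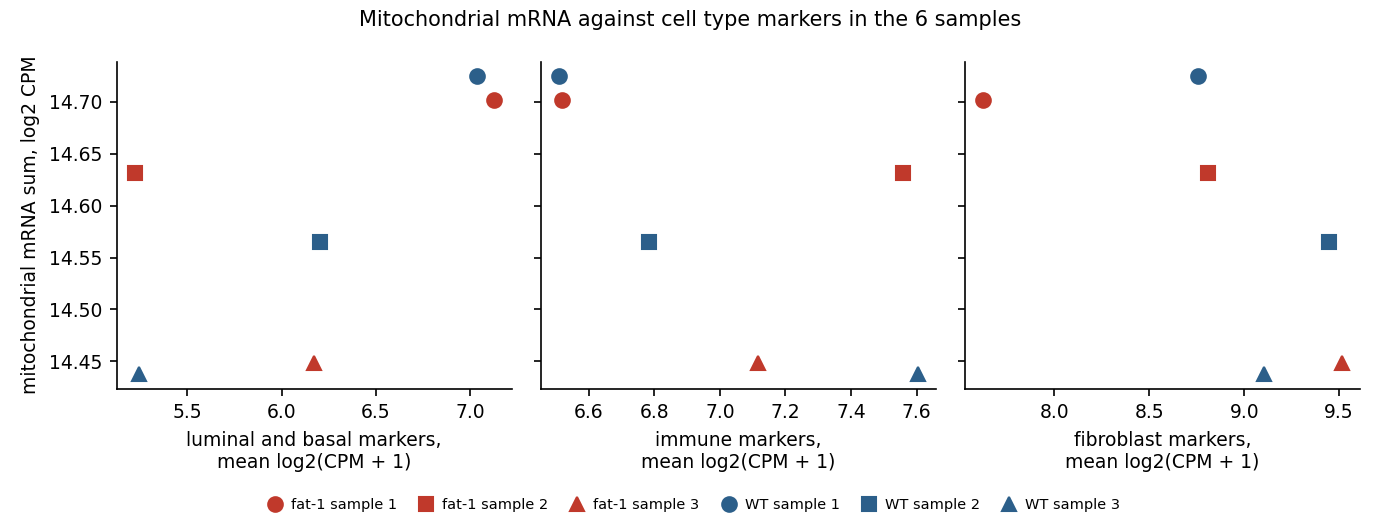
Each point is 1 of the 6 samples, *fat-1* in red and WT in blue, with the mitochondrial mRNA sum in log2 CPM on the vertical axis (which does not start at 0) and the mean log2(CPM + 1) of luminal and basal, immune or fibroblast markers on the horizontal axes. The first samples of both genotypes have high epithelial scores (7.12 and 7.04) and high mRNA sums, and *fat-1* sample 2, with an epithelial score of 5.22, lies away from that order.

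Nuclear genes that copy, transcribe, process and translate the mitochondrial genome gave no call either. Of a list of 78 genes all were tested as locus sums, 10 of which also hold another gene symbol, and 0 passed at an adjusted and 0 at an unadjusted *p*-value of 0.05 by edgeR's quasi-likelihood test, beside 1.14% of all loci at the unadjusted threshold. DESeq2 gave 0 and 1 (1.49% of all loci). The log2 fold change was above 0 for 46 and below 0 for 32 genes, with a median of 0.03. It was above 0 for 6 of 10 genes of transcription, 5 of 11 of replication, 11 of 22 of RNA processing and turnover, 12 of 18 of rRNA and tRNA modification and 12 of 17 mitochondrial aminoacyl-tRNA synthetases, beside 50.6% of all loci.

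*Polrmt*, the RNA polymerase of mitochondria, had 19.997, 21.8 and 22.9 CPM across *fat-1* pools and 19.4, 19.6 and 23.7 CPM across WT pools (log2 fold change 0.05, SE 0.124). *Tfam*, which packs the genome and starts its transcription, had 34.1, 41.1 and 37.5 CPM against 33.2, 34.7 and 44.3 CPM (log2 fold change 0.01, SE 0.145). For both genes WT sample 3 had the highest level. *Tefm*, an elongation factor, and *Polg*, the catalytic subunit of the DNA polymerase, had log2 fold changes of 0.05 and −0.00, and *Twnk*, the replicative helicase, one of −0.02. *Lrpprc*, which stabilises mitochondrial mRNAs, had one of −0.06, and *Mtpap*, the poly(A) polymerase, one of 0.04, with other genes assembled into its locus. All 7 overlapped between genotypes.

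The list ran from −0.34 for *Cdk5rap1*, which modifies tRNAs, to 0.24 for *Mrm3*, which methylates the large rRNA, and both were named after their values were seen. *Cdk5rap1* had 51.3, 36.0 and 50.1 CPM across *fat-1* pools and 66.7, 47.3 and 59.9 CPM across WT pools, which overlapped (edgeR's adjusted *p* = 1.00). *Mrm3* had 7.18, 6.33 and 6.79 CPM across *fat-1* pools and 5.41, 6.25 and 5.55 CPM across WT pools (adjusted *p* = 1.00 by the same test). It was the gene that DESeq2 passed at the unadjusted threshold (unadjusted *p* = 0.0390, adjusted *p* = 1.00). *Mrm3* was 1 of 3 listed genes whose groups did not overlap, beside 4.15% of all loci, and the others were *Fastkd5*, whose locus holds another gene symbol, and *Pus1*, all 3 higher in the *fat-1* samples.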

How the data were processed

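Isolated mammary epithelial cells of 3 *fat-1* and 3 WT pooled samples were grouped by genotype from the labels and column names, and 0 value columns lacked a sample. The authors mapped reads to GRCm38 with HISAT2, quantified them with StringTie and deposited a matrix of estimated counts (whole numbers, not normalized). How coverage became counts, the annotation, strand use and the treatment of reads with several matches (nuclear copies of mitochondrial sequence exist) are not given in the sources used here, so values of overlapping genes are uncertain. The study and the labels give total RNA, and the labels also an mRNA library. That the samples are separate pools rests on the labels, so *p*-values measure the spread between these pools.

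All rows were fitted in R 4.3.3 with edgeR 4.0.16 (filterByExpr, TMM, quasi-likelihood test, genotype only, Benjamini-Hochberg, threshold 0.05), and again as sums per locus. CPM refers to TMM-scaled totals of each table, which differ slightly between rows and locus sums. Shares, ratios and marker scores (pseudocount 1) were compared by exact two-sided permutation in Python 3.11.15 with scipy 1.17.1, pandas 2.3.3, numpy 2.4.6 and matplotlib 3.10.9. Alternatives were DESeq2 1.42.0, edgeR's exact and older tests, other scalings, no filter, a block and leaving out each sample. Fits were tested on simulated data. Positions, lengths and sequences are from GENCODE on GRCm38, matched by symbol for all 37 genes. Named were all mRNAs and rRNAs, the 5 tRNAs with the highest mean CPM, 7 nuclear genes, and any tRNA or listed gene at an unadjusted *p*-value of 0.05 (0 met this). *mt-Tm*, *mt-Ty*, *Cdk5rap1*, *Mrm3*, *Fastkd5* and *Pus1* were named outside this rule, after their values were seen. Also outside the rule, *mt-Ti*, *mt-Tq*, *mt-Tw*, *mt-Ts1*, *mt-Tl2* and *mt-Ts2* were named for shared bases and their counts, and *mt-Tp* for its map position. The members and lists were chosen with earlier results of these data known.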

Additional observations from a re-analysis of the deposited data

How the results depend on the processing

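With DESeq2 the count at the unadjusted threshold went from 0 to 1 for mitochondrial rows, from 0 to 1 for mitochondrial loci (*mt-Tm* in both) and from 0 to 1 for the nuclear list. The same replicate numbers occur in both genotypes, but the deviations of same-numbered samples over all tested loci correlated at 0.515, −0.0961 and 0.0740. The numbers were therefore not taken to pair samples. The mitochondrial mRNA sum did fall from sample 1 to sample 3 in both genotypes (26641, 25376 and 22362 CPM in *fat-1*, 27067, 24236 and 22196 CPM in WT). Whether the numbers pair samples was not tested further. A replicate block gave log2 fold changes of 0.02 for mRNA, 0.04 for rRNA and 0.10 for tRNA sums. Their SEs were 0.041, 0.081 and 0.126 with the block, beside 0.098, 0.086 and 0.121 without it. The block gave 0 mitochondrial rows at either threshold. It gave 1 nuclear gene at the unadjusted threshold (*Cdk5rap1*, with an adjusted *p* of 1.00 by edgeR's quasi-likelihood test, beside 1.56% of all loci). Leaving out each sample in turn gave log2 fold changes of −0.0494 to 0.0943 for the mRNA sum, −0.0299 to 0.114 for the rRNA sum and 0.06 to 0.18 for the tRNA sum. It gave differences in the mitochondrial share of −0.0647 to 0.206 percentage points, and log2 differences in the rRNA to mRNA ratio of −0.0693 to 0.101. The correlation of mRNA with luminal and basal markers was then 0.465 to 0.908 and that with immune markers −0.918 to −0.480. Of the 32 tested rows, 256 of 256 log2 fold changes under other scalings, filters, tests and the block moved by less than the spread, as did 189 of 192 with a sample left out. The exceptions were *mt-Rnr1* and *mt-Nd4* without *fat-1* sample 2 (−0.13 and −0.29) and *mt-Nd6* without WT sample 2 (0.35). The count of rows without overlap went from 3 to 1 under library totals, an alternative chosen after seeing the data. Where a value changed the cause was not tested. The count filter left out 5 tRNAs, and without it all 37 rows were tested and 0 passed the adjusted threshold. The row values of *mt-Nd4l* and *mt-Nd4*, and those of *mt-Atp8*, *mt-Atp6* and *mt-Co3*, depend on how the counts of each locus were divided. So do the shares of complexes IV and V.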

Other observations

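A row without a gene symbol carried the locus number directly after that of *mt-Tp*, the last gene of the mitochondrial map before the control region. It had 123, 111 and 94.1 CPM across *fat-1* pools and 116, 105 and 94.1 CPM across WT pools, so the genotypes overlapped and the third sample of each was the lowest, as it was for the mitochondrial mRNA sum. The matrix gives this row no position, and it was not counted among the mitochondrial genes.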
